A study of Mus musculus with 8 samples.

Results

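The Hox genes are the 39 protein-coding genes of the mouse Hoxa, Hoxb, Hoxc and Hoxd clusters, chosen by symbol alone from 35498 genes with transcripts in the deposited tables. The Hoxa cluster on chromosome 6 holds 11 of them, the Hoxb cluster on chromosome 11 holds 10, and the Hoxc cluster on chromosome 15 and the Hoxd cluster on chromosome 2 hold 9 each. The data were 8 bulk RNA-seq libraries of mouse sarcoma cells, 2 in each of 4 groups, and 33 of the 39 genes had enough reads to be tested among 16309 genes. Hoxa11, Hoxb1, Hoxc12, Hoxd1, Hoxd12 and Hoxd13 were not tested, and together with the others they are described by level.

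All 4 groups came from one source, C57BL/6 mesenchymal stem cells that had lost p53 and overexpressed Ccne1, which encodes cyclin E1. The libraries labelled shMif came from cells given a short hairpin RNA against Mif, the gene of macrophage migration inhibitory factor, and shSCR from cells given a control hairpin. The sgMif libraries came from cells given Cas9 and a guide RNA against Mif, and sgSCR from cells given Cas9 and a control guide. The sample titles label sgMif as Mif-KO, a knockout, shMif as Mif-KD, a knockdown, and both control groups as Mif-WT, wild type. The labels' growth protocol names Cas9 for the guide cells, while the series' design text names it for the hairpin cells as well. Cells of every group had first formed tumours in primary mice, were then grown subcutaneously on polyurethane scaffolds in secondary recipients, and were sorted from the digested tumours by a fluorescent marker whose identity is not given. Whether a group was 1 clone, and the age of the recipients, are not given either. The labels do not say whether both libraries of a group stem from different mice, and p-values therefore reflect only library-to-library spread, which may be technical.

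Hox genes encode homeodomain transcription factors that give cells their position along the head-to-tail axis and, in limbs, from shoulder or hip to digits. Within a cluster the genes lie in numerical order, with low numbers at the 3′ end and used toward the head, and high numbers at the 5′ end and used toward the tail. Retinoic acid and Cdx factors switch the clusters on in the embryo, Polycomb and trithorax complexes then hold them off or on, and mesenchymal cells of the adult keep a Hox pattern that reflects where they came from. Hox proteins bind DNA together with Pbx and Meis cofactors.

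Library totals ran from 19042235 to 51819308 reads, so that 3 reads, the limit that a count of 0 allows for counting error alone, equalled 0.0579 to 0.158 CPM, counts scaled to a common library size. Mif had 277 and 222 CPM in the libraries labelled shMif, against 170 and 375 CPM in shSCR libraries, a log2 fold change of -0.13 ± 0.32 (SE; adjusted p = 0.925, edgeR quasi-likelihood test with Benjamini-Hochberg adjustment, as for every adjusted p given without another tool). The Mif reads therefore do not separate the hairpin groups, and directions drawn between them follow the labels. Mif had 221 and 222 CPM in sgMif libraries, against 377 and 455 CPM in sgSCR libraries (log2 fold change -0.91 ± 0.32, adjusted p = 0.215). All 12 mesenchymal markers had reads in every library, with a summed level of 31600 to 55300 CPM. Macrophage markers summed to 114 to 444 CPM with reads for 12 of 12, endothelial markers to 37.1 to 277 CPM with reads for 8 of 8, B cell markers to 3.79 to 59.4 CPM, T and NK cell markers to 2.04 to 9.37 CPM, keratinocyte markers to 2.91 to 5.03 CPM, skeletal muscle markers to 1.13 to 7.46 CPM, and erythroid and granulocyte markers to 3.64 to 65.9 CPM with Ly6g at 0. Summed olfactory receptor reads were low, at 389.3 to 576.1 CPM, in the libraries shMif 2, shSCR 2 and sgMif 2 and high, at 1323 to 2401 CPM, in the other 5 libraries.

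The level of each gene is given first, in TPM, an abundance relative to all transcripts of a library that accounts for transcript length and so allows genes to be compared. The 3 highest genes were numbered between 6 and 10 in the Hoxa, Hoxc and Hoxd clusters, while in the Hoxb cluster they were Hoxb7, Hoxb2 and Hoxb6. Genes at the 5′ ends were at or near the lowest levels in all 4 clusters. In 2 clusters the lowest mean was that of the gene at the 3′ end. Hoxb1 averaged 0.068 TPM, beside 0.166 TPM for Hoxb13, and Hoxd1 0.00767 TPM, beside 0.00793 TPM for Hoxd13. Of the 39 genes, 21 reached 1 TPM in all 8 libraries, which was 53.8%, against 48.4% of 21794 protein-coding genes, and 12 stayed below 1 TPM in every library. The 21 comprised 6 genes of the Hoxa, 5 of the Hoxb, 6 of the Hoxc and 4 of the Hoxd cluster. Counted over all members, 24 reached 0.5 TPM in every library (61.5%, against 51.3% of protein-coding genes). At 2 TPM there were 16 (41.0%, against 44.9%), so that the Hox share was then the lower one. When reads on transcripts not annotated as protein-coding were left out, 18 reached 1 TPM in every library.

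**Figure D1:**
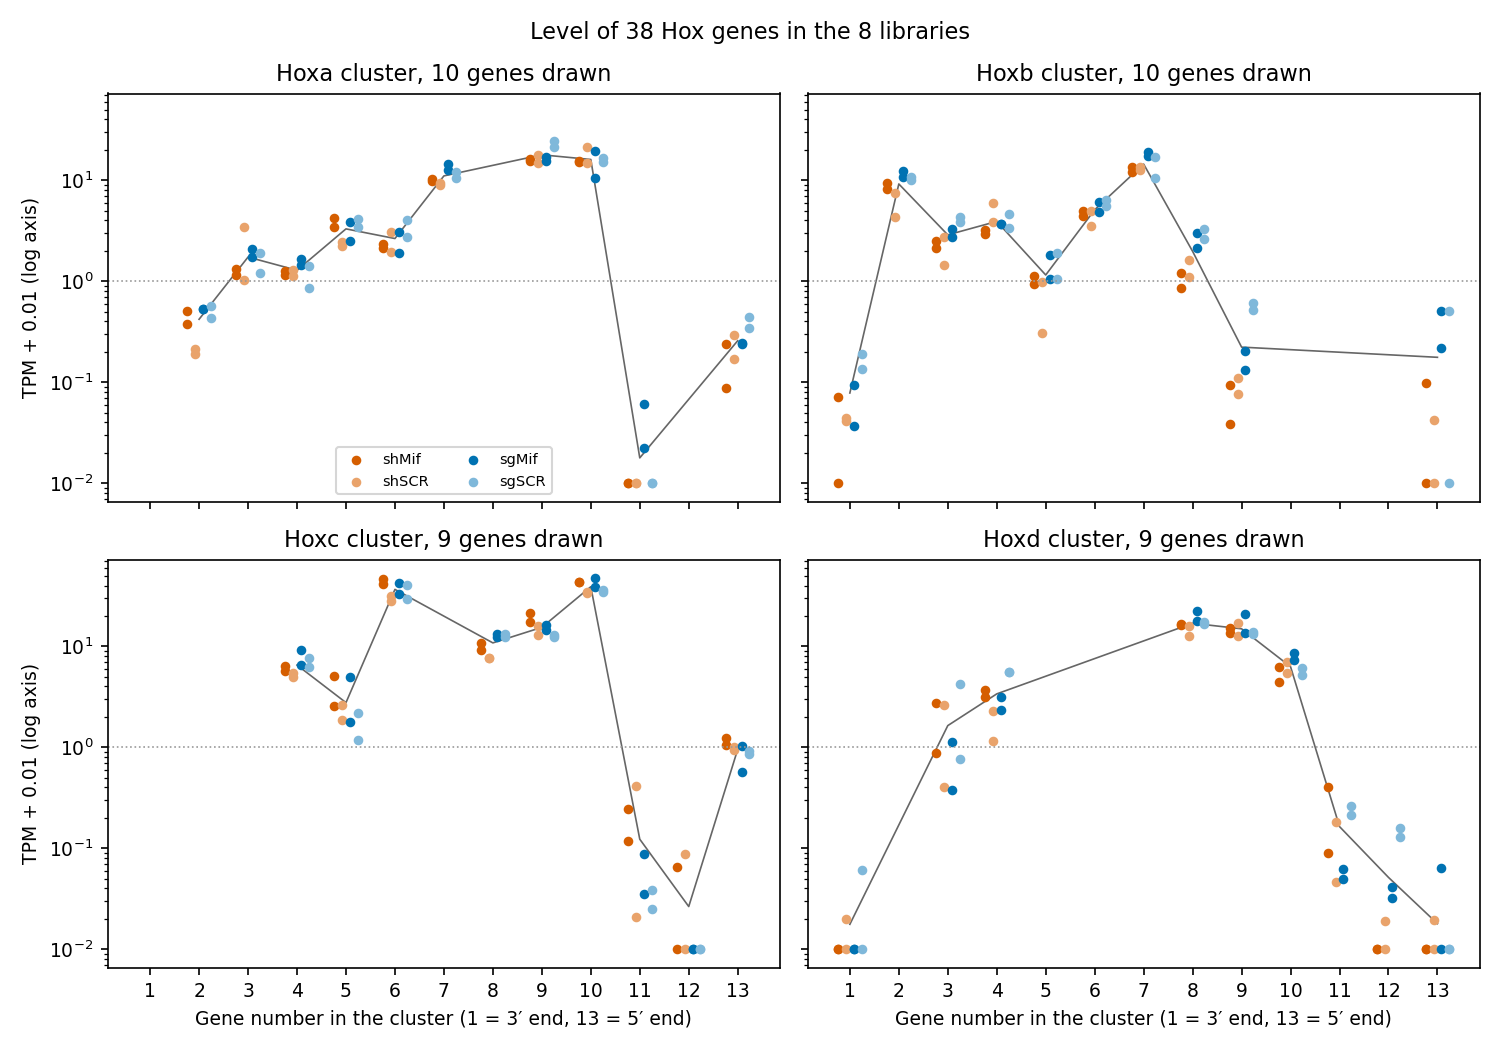
Level of 38 Hox genes by number in the cluster, in TPM plus 0.01 on a log axis, in 4 panels for the 4 clusters. Points are single libraries coloured by group, the line joins the means over 8 libraries, and the dotted line marks 1 TPM. Levels drop between gene 10 and gene 11 in the Hoxa, Hoxc and Hoxd panels and between genes 8 and 9 in the Hoxb panel, in every group.

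The 39 genes together held 211 to 298 TPM per library. The Hoxc cluster gave 39.8 to 50.8% of that sum, the Hoxa cluster 19.5 to 26.2%, the Hoxd cluster 15.8 to 19.5% and the Hoxb cluster 13.1 to 19.2%, so the Hoxc cluster gave the greatest share in each of the 8 libraries. By number, genes 9 and 10, of which there are 7, gave 40.9 to 48.7% of the Hox sum, and genes 4 to 8, of which there are 15, gave 44.3 to 51.0%. The 8 genes numbered 1 to 3 gave 5.21 to 8.43%. The 9 genes numbered 11 to 13 summed to 1.2 to 2.15 TPM, or 0.493 to 0.82%.

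The drop lies between the same numbers in 3 clusters, where genes of one number, called paralogues, descend from one ancestral gene. Hoxa10, a gene of the trunk, limb and uterus, averaged 16 ± 3.24 TPM (SD, n = 8 libraries, also below), and its neighbour Hoxa11, which patterns the forearm and lower leg, averaged 0.00777 ± 0.0176 TPM from 3 reads in all. Hoxd10 averaged 6.27 ± 1.30 TPM, and its neighbour Hoxd11 averaged 0.154 ± 0.127 TPM from 84 reads. Hoxc10 averaged 38.9 ± 5.03 TPM, and Hoxc11 averaged 0.113 ± 0.14 TPM from 48 reads. The lowest library of each gene numbered 10 lay above the highest library of its neighbour numbered 11 in all 3 clusters.

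The sequences before the starts of Hoxa10 and Hoxa11, and of Hoxd10 and Hoxd11, are shown because the level drops between these neighbours. Each is the 250 bases before a RefSeq start in build GRCm38.p6, read 5′ to 3′ on the gene's strand, with each CG pair, the site of DNA methylation, in capitals. Hoxa10 lies at chr6:52234940-52235189 on the minus strand, with 20 CG pairs. Hoxa11 lies at chr6:52245811-52246060 on the minus strand, with 13. Hoxd10 lies at chr2:74691641-74691890 on the plus strand, with 20, and Hoxd11 at chr2:74682073-74682322 on the plus strand, with 20. The table also has a second window for Hoxa10, at chr6:52240855-52241104 with 7 CG pairs, and one for Hoxd11, at chr2:74679308-74679557 with 2. Over all libraries the transcript nearest the window shown held 861 Hoxa10 reads and that nearest the second window 724. Another Hoxa10 transcript, not classed as protein-coding and listed as nearest to neither window, held 4071 of the 5656 Hoxa10 reads. For Hoxd11 the transcript nearest the window shown held 3 reads and that nearest the second window 81.
Hoxa10: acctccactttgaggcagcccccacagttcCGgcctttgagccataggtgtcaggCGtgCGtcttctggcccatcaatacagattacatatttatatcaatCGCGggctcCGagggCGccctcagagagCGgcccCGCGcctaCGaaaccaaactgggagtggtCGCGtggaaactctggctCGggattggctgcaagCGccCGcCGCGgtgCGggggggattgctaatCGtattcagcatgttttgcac
Hoxa11: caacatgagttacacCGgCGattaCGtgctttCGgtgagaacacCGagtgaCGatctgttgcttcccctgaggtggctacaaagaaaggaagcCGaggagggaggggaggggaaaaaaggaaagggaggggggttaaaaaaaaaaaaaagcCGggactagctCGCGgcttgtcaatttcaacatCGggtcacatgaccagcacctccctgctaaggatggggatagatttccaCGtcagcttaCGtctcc
Hoxd10: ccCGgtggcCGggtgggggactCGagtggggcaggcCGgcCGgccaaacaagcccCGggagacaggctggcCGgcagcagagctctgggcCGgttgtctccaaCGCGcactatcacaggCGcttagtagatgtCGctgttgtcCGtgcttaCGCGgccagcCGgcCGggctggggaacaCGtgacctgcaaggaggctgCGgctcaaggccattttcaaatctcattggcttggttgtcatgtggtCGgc
Hoxd11: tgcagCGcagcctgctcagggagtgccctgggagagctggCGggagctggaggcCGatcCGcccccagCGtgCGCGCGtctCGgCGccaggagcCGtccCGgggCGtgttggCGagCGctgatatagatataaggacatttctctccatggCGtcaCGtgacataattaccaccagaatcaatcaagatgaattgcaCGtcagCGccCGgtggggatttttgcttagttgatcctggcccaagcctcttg

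In the RefSeq table, 22 of the 39 genes had 24 such windows. The median window held 12.5 CG pairs, against 6.0 in the 32851 promoter windows of all genes, and a GC content of 58.6%, against 52.4%. The most CG pairs were in the windows of Hoxa13, with 35 at 0.247 TPM, Hoxd13, with 31 at 0.00793 TPM, and Hoxa5, with 28 at 3.28 TPM. The fewest were in the second window of Hoxd11, with 2 at 0.154 TPM, and in those of Hoxa9, with 3 at 17.8 TPM, and Hoxd4, with 3 at 3.37 TPM. Of 4 short motifs searched on both strands, CCAAT was in 14 of 24 Hox windows (58.3%, against 33.8% of all windows), GGGCGG in 10 (41.7%, against 32.7%), TATAAA in 4 (16.7%, against 12.4%) and TGATNNAT, a site form bound by Hox and Pbx proteins as a pair, in 4 (16.7%, against 7.68%). These matches describe letters in the windows and no binding.

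The highest Hox genes are in the Hoxc cluster. Hoxc10, a gene of the lumbar and hindlimb level, had 43.3 and 43.3 TPM in the libraries labelled shMif, 33.8 and 34.8 TPM in shSCR, 38.5 and 47.2 TPM in sgMif and 36.5 and 34.3 TPM in sgSCR libraries. Hoxc6, a gene of the thoracic level, had 46.4 and 41.6 TPM in shMif, 27.9 and 31.8 TPM in shSCR, 32.9 and 42.3 TPM in sgMif and 40.3 and 29.6 TPM in sgSCR libraries. Their ranges overlapped, and both genes lay above all others in every library: only between Hoxc6 and the next gene, Hoxa9, did the ranges of neighbours in the order of levels not overlap. Hoxc9 had 21.3 and 17.4 TPM in shMif, 12.8 and 15.7 TPM in shSCR, 14.5 and 16.3 TPM in sgMif and 12.3 and 12.9 TPM in sgSCR libraries.

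Below them came a group of 9 genes with means between 9.15 and 17.8 TPM, in the order Hoxa9, Hoxd8, Hoxa10, Hoxc9, Hoxd9, Hoxb7, Hoxa7, Hoxc8 and, last, Hoxb2. Hoxa9, which also drives self-renewal of blood progenitors, had 16 and 15.5 TPM in shMif, 17.8 and 14.8 TPM in shSCR, 15.5 and 16.9 TPM in sgMif and 24.5 and 21.3 TPM in sgSCR libraries. Hoxa10 had 15.3 and 15.2 TPM in shMif, 21.3 and 14.7 TPM in shSCR, 10.4 and 19.3 TPM in sgMif and 16.6 and 15 TPM in sgSCR libraries. Hoxa7 had 10.2 and 9.84 TPM in shMif, 9.37 and 8.96 TPM in shSCR, 12.7 and 14.5 TPM in sgMif and 10.6 and 12 TPM in sgSCR libraries. In TPM the highest libraries were sgSCR 1 for Hoxa9, shSCR 1 for Hoxa10 and sgMif 2 for Hoxa7.

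In the Hoxd cluster, Hoxd8 had 16.3 and 16.8 TPM in shMif, 16 and 12.5 TPM in shSCR, 17.7 and 22.2 TPM in sgMif and 17.3 and 16.7 TPM in sgSCR libraries. Hoxd9 had 13.5 and 15 TPM in shMif, 17.1 and 12.5 TPM in shSCR, 13.4 and 21.1 TPM in sgMif and 13.8 and 13.1 TPM in sgSCR libraries. Hoxd10 had 6.23 and 4.43 TPM in shMif, 6.96 and 5.44 TPM in shSCR, 7.23 and 8.55 TPM in sgMif and 6.10 and 5.20 TPM in sgSCR libraries. For these 3 genes the sgMif 2 library was the highest of the 8. In the Hoxb cluster, Hoxb7 had 13.6 and 11.9 TPM in shMif, 12.7 and 13.5 TPM in shSCR, 18.9 and 17.5 TPM in sgMif and 10.5 and 16.9 TPM in sgSCR libraries. Hoxb2, a hindbrain gene, had 9.45 and 8.19 TPM in shMif, 4.33 and 7.37 TPM in shSCR, 12.4 and 10.7 TPM in sgMif and 10.8 and 9.99 TPM in sgSCR libraries, lowest in shSCR 1. Hoxb6 had 4.97 and 4.43 TPM in shMif, 3.54 and 4.89 TPM in shSCR, 4.81 and 6.06 TPM in sgMif and 5.57 and 6.41 TPM in sgSCR libraries.

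The remaining expressed genes averaged between 1.14 and 6.51 TPM: Hoxc4, Hoxb4, Hoxd4, Hoxa5, Hoxb3, Hoxc5, Hoxa6, Hoxb8, Hoxa3, Hoxd3, Hoxa4 and Hoxb5. Genes below 1 TPM on average included Hoxc13 at 0.943 ± 0.192, Hoxa2 at 0.409 ± 0.148, Hoxa13 at 0.247 ± 0.108, Hoxb9 at 0.212 ± 0.215 and Hoxb13 at 0.166 ± 0.217 TPM. Hoxb1, a gene of a single hindbrain segment, Hoxd12, Hoxc12, Hoxd13 and Hoxd1 each averaged at most 0.068 TPM. Hoxc13, a gene of hair and nails, and Hoxa13, a gene of digits and the hindgut, are the last genes at the 5′ ends of their clusters. Hoxc13 had more than Hoxc11 and Hoxc12 in every library, and Hoxa13 more than Hoxa11. Evx1 and Evx2, the homeobox genes next to the 5′ ends of the Hoxa and Hoxd clusters, reached at most 0.0361 and 0.0107 TPM.

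Not all reads fell on coding transcripts. Over the 39 genes, 7.73 to 16.7% of reads were assigned to transcripts that GENCODE does not class as protein-coding, with the highest shares in shSCR 1 (16.7%) and sgSCR 1 (13.2%). For Hoxa10 the share was 72% over all libraries, and ran from 54.5 to 87.3% among them. It was 29.4% for Hoxc8 (8.04 to 60.4%), 32.8% for Hoxc6 (22.5 to 37.3%), 39.0% for Hoxd4 (0.0 to 50.6%) and 63.3% for Hoxb5. All 3 Hoxa11 reads and 96.4% of Hoxd11 reads lay on such transcripts. The assignment is Salmon's estimate among overlapping transcripts. Hoxd3 and Hoxd4 share 388 exon bases and Hoxc5 and Hoxc10 share 166, so reads of these pairs may have been split between them. Counting genes of all kinds, 9 members share exon bases with a gene on the same strand and 10 with a gene on the opposite strand, among them Hoxa7 with Hoxaas3 and Hoxb3 with Hoxb3os. The opposite-strand genes had no transcripts in the deposited tables, so no reads were assigned to them. The strandedness of the libraries is not given, so whether reads of those genes were counted for the Hox genes cannot be told.

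Between libraries the genes differed in how steady they were. Hoxa9 had the smallest spread among the 21 genes at 1 TPM or more, with an SD of 0.16 in log2 CPM and a highest library 1.43 times the lowest. For Hoxc10 the SD was 0.20, and the ratio 1.42. Hoxd4 and Hoxd8 spread the most, with SDs of 0.57 and 0.55 and ratios of 3.72 and 3.68. The median SD was 0.30 over these 21 genes, against 0.26 over the 10949 genes at that level.

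The first comparison asked how cells given the Mif hairpin differed from cells given the control hairpin, here and below in CPM, which compares 1 gene between libraries. Of 33 Hox genes tested, 0 passed the adjusted p threshold of 0.05 in edgeR, where 0.0184% of all genes tested passed. DESeq2 called 0 of 27 Hox genes with an adjusted p, where it called 1.38% of all genes. In edgeR 5 Hox genes had an unadjusted p under 0.05, all higher in the libraries labelled shMif, or 15.2%, against 9.26% of all genes. The median log2 fold change over the 33 genes was 0.32, against 0.03 over all genes, and 26 genes (78.8%) had a positive one, against 53.0%. Without shSCR 1 the median over 35 Hox genes was 0.15, and with counts scaled by effective transcript length it was 0.18 over the 33. The libraries of the groups did not overlap for 17 Hox genes, 16 higher and 1 lower in the libraries labelled shMif, or 51.5%, against 41.7% of all genes.

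The genes with the smallest p in that comparison were Hoxc6, Hoxd8 and Hoxa5. Hoxc6 had 40.6 and 37.9 CPM in the libraries labelled shMif, against 25.1 and 28 CPM in shSCR libraries, a log2 fold change of 0.56 ± 0.18 (SE; adjusted p = 0.476). Both shMif libraries lay above both shSCR libraries. Hoxa5, a gene of the lung, neck and shoulder level, had 7.10 and 6.17 CPM in the libraries labelled shMif, against 2.85 and 4.34 CPM in shSCR libraries (log2 fold change 0.88 ± 0.36, adjusted p = 0.521). Hoxd8 had 48.7 and 54.2 CPM in the libraries labelled shMif, against 18.8 and 39.4 CPM in shSCR libraries (log2 fold change 0.82 ± 0.32, adjusted p = 0.517). The groups did not overlap for Hoxa5 and Hoxd8 either, and shSCR 1 was the lowest of the 8 libraries in both.

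Hoxd8 passed the threshold when genes with few reads were kept (0.79, adjusted p = 0.00501), and both Hoxd8 (1.45, adjusted p = 0.0164) and Hoxb2 (1.37, adjusted p = 0.0318) passed without shSCR 2, when shSCR 1 alone stood for that group. Without shSCR 1 the log2 fold change was 0.38 for Hoxd8 and 0.26 for Hoxb2 (adjusted p = 1.0 for both). With counts scaled by effective transcript length, the log2 fold change of Hoxd8 was 0.18 (adjusted p = 0.821). Salmon placed 51.2 of the shSCR 1 reads of Hoxd8 on a transcript that had 0 reads in the other 7 libraries, and in TPM the 2 shSCR libraries had 16 and 12.5. Hoxb2 was low in shSCR 1 on both scales, at 5.91 CPM and 4.33 TPM, beside 12.7 CPM and 7.37 TPM in shSCR 2. The part of these transcript assignments in the difference was not tested.

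**Figure D2:**
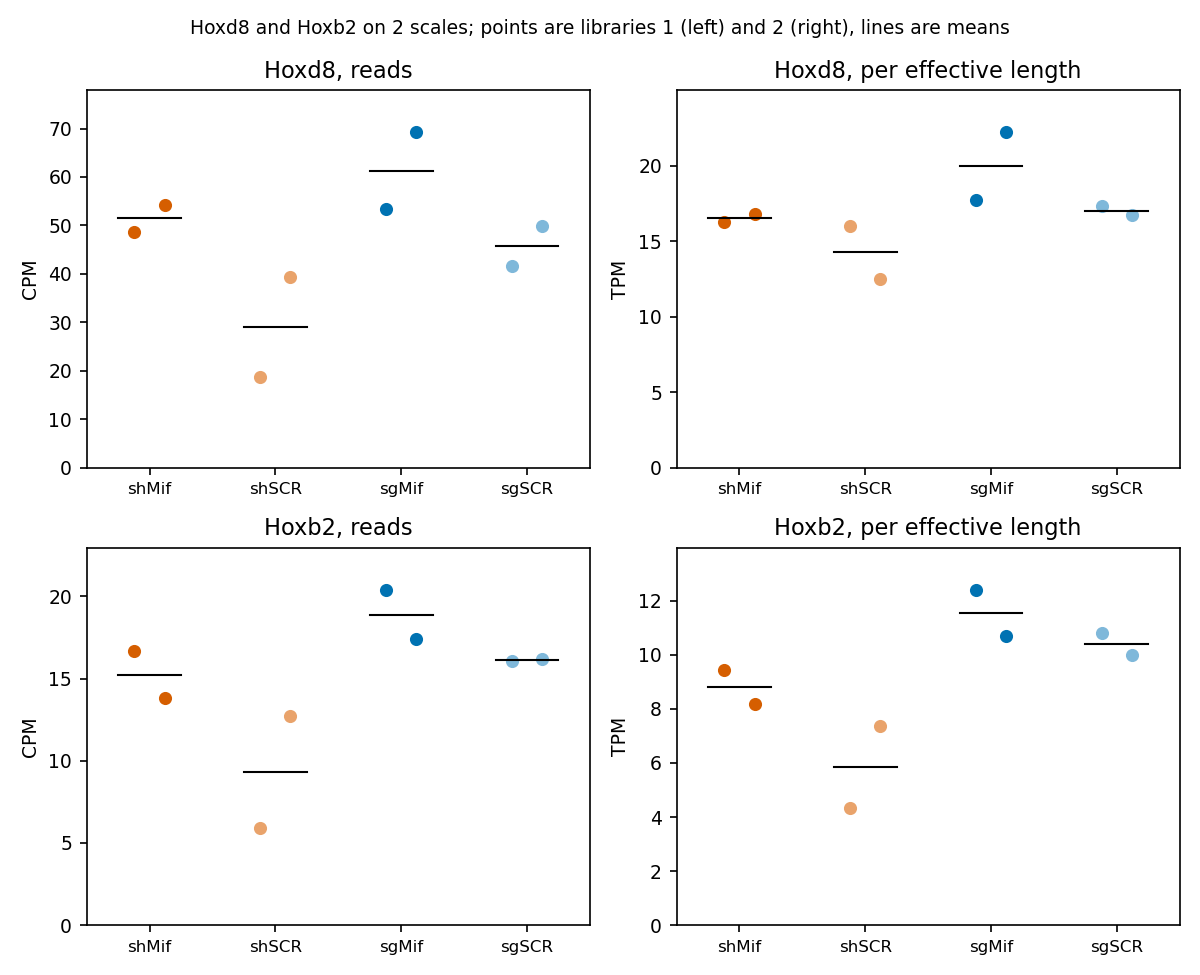
Hoxd8 (top) and Hoxb2 (bottom) in each library, in CPM at left and in TPM at right, with groups along the horizontal axis, points for single libraries and lines for the means of 2. The library shSCR 1 is lowest in both CPM panels and in the TPM panel of Hoxb2, but not in the TPM panel of Hoxd8, where it has 16 TPM.

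The second comparison set cells given the Mif guide against cells given the control guide. In edgeR 0 of 33 Hox genes passed, where 0.987% of all genes did. DESeq2 called 0 of 32, where it called 6.58% of all genes, and edgeR had 0 Hox genes at an unadjusted p under 0.05, where 16.6% of all genes had one. The median log2 fold change was 0.09 over the Hox genes and -0.01 over all genes, and over the Hox genes its sign turned without sgMif 2 (-0.08) and without sgSCR 1 (-0.06), while it was 0.24 without sgMif 1. The libraries of the groups did not overlap for 13 Hox genes, 9 higher and 4 lower in sgMif, or 39.4%, against 51.3% of all genes.

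The smallest p-values were those of Hoxd4, Hoxc10 and Hoxa7. Hoxd4, a gene of the hindbrain and neck level, had 3.74 and 5.66 CPM in sgMif, against 8.25 and 8.67 CPM in sgSCR libraries (log2 fold change -0.84 ± 0.37, adjusted p = 0.312). Hoxc10 had 55.6 and 70.7 CPM in sgMif, against 51.6 and 49.9 CPM in sgSCR libraries (0.32 ± 0.15, adjusted p = 0.350). Hoxa7 had 19.2 and 23.2 CPM in sgMif, against 14.8 and 17.7 CPM in sgSCR libraries (0.38 ± 0.19, adjusted p = 0.354). In each of the 3 the groups did not overlap, and the difference did not pass.

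**Figure D3:**
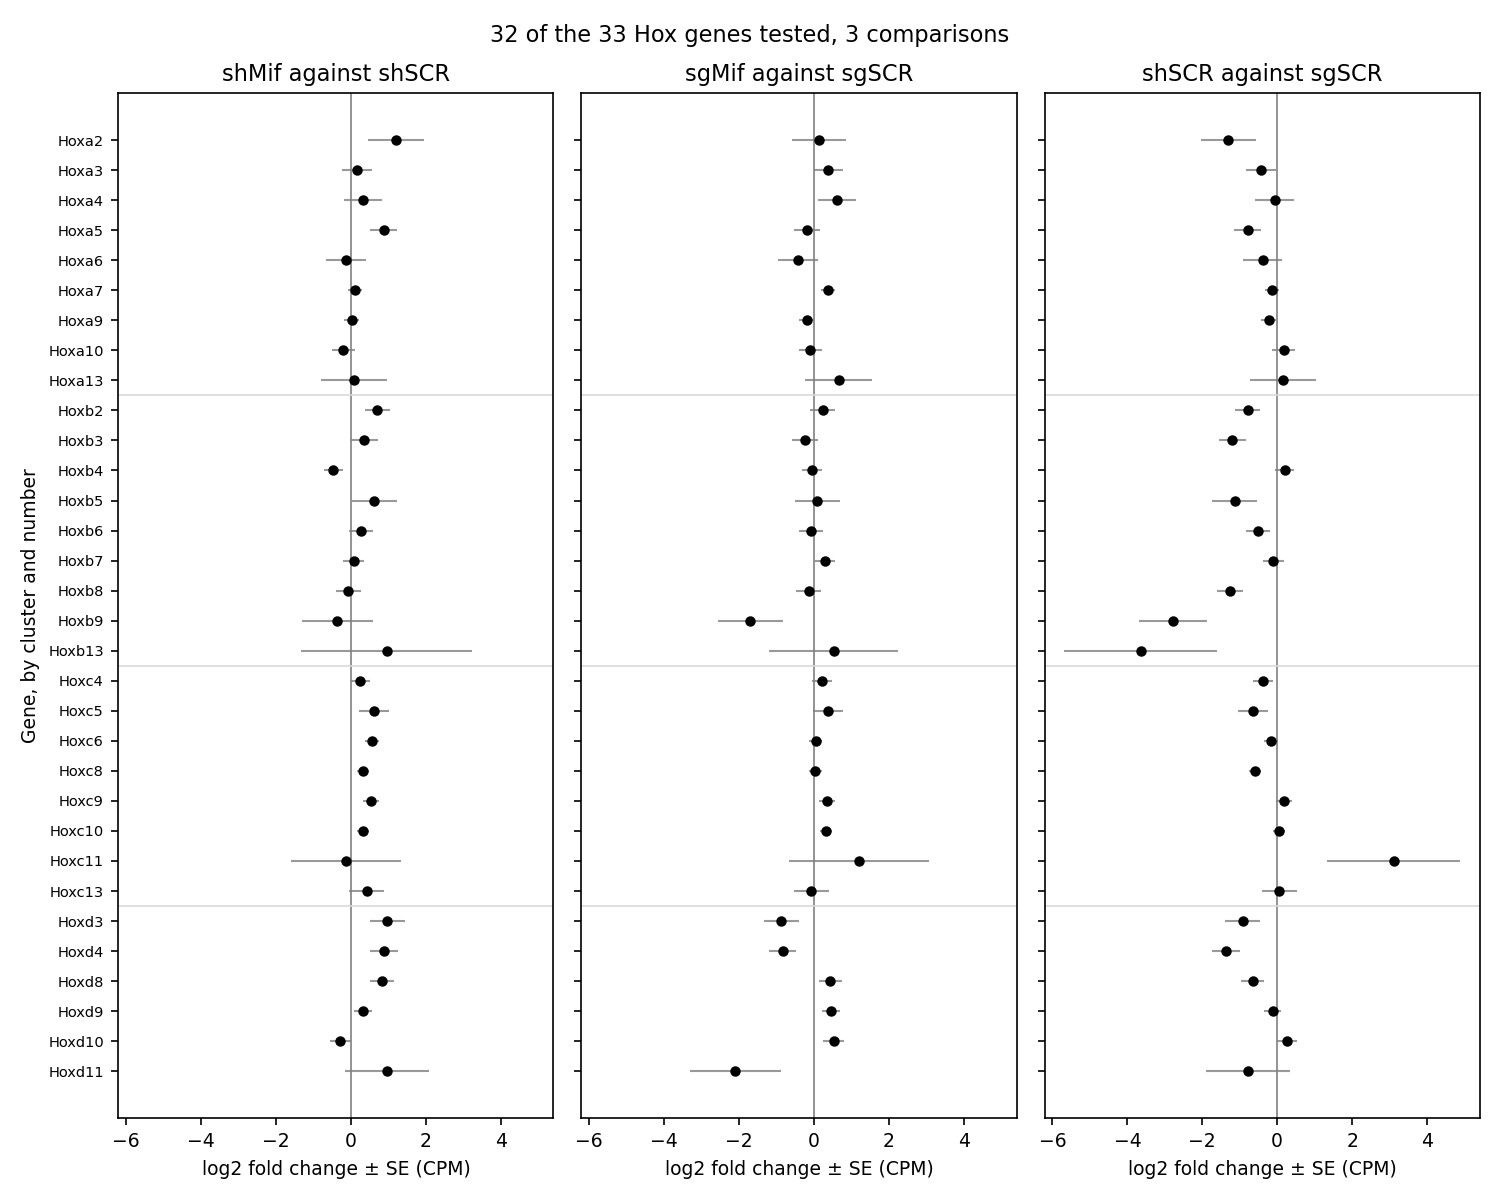
Log2 fold change in CPM with its standard error for 32 of the 33 Hox genes tested, in clusters from Hoxa at the top to Hoxd at the bottom, for shMif against shSCR, sgMif against sgSCR and shSCR against sgSCR. Of the 32 genes, 25 lie right of 0 in the first panel and 24 lie left of 0 in the third, and 0 passed the adjusted threshold in edgeR in any panel.

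The hairpin and guide effects were then compared with each other, as the sgMif effect minus the shMif effect. In edgeR 0 of 33 Hox genes passed, where 0.092% of all genes did, and DESeq2 called 0 of 30, where it called 4.54%. In edgeR 2 Hox genes had an unadjusted p under 0.05 (6.06%), against 15.8% of all genes. These were Hoxd4, with a difference of -1.73 ± 0.53 in log2 fold change (adjusted p = 0.204), and its neighbour Hoxd3, with -1.85 ± 0.67 (adjusted p = 0.253). Hoxa5 followed with -1.07 ± 0.50 (adjusted p = 0.343). Hoxd4 had 6.59 and 5.46 CPM in the libraries labelled shMif, against 2.33 and 4.18 CPM in shSCR, which is the opposite order to that in the guide groups. Hoxd3 had 2.83 and 2.59 CPM in shMif, against 1.61 and 1.15 CPM in shSCR, and 1.10 and 1.74 CPM in sgMif, against 3.02 and 2.19 CPM in sgSCR libraries. Hoxd3 and Hoxd4 share exon bases with each other and with Gm28230, a gene model that spans both. With only protein-coding transcripts summed, the differences were -1.26 for Hoxd4 and -3.6 for Hoxd3. When only the 5 libraries with high olfactory receptor reads were fitted, Hoxd4 passed (-2.67, adjusted p = 0.0353). In that fit 3 of the 4 groups had 1 library each, so that all spread came from the 2 sgSCR libraries.

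The 2 control groups differ by delivery system as far as the labels say. The number of Hox genes with an unadjusted p under 0.05 was greatest in this comparison, but their share was below that of all genes. In edgeR 0 of 33 passed, where 4.02% of all genes did. An unadjusted p under 0.05 was found for 6, all lower in shSCR, or 18.2%, against 22.9% of all genes. DESeq2 called 3 of 32 (9.38%, against 12.9% of all genes), which were Hoxb3 (-1.21, adjusted p = 0.0265 in DESeq2), Hoxb8 (-1.28, adjusted p = 0.0194 in DESeq2) and Hoxd4 (-1.39, adjusted p = 0.0133 in DESeq2). The median log2 fold change was -0.43 over the 33 genes, against -0.04 over all genes, and 25 were negative (75.8%, against 52.4%). With counts scaled by effective transcript length the median was -0.36, and 21 were negative. By cluster the medians were -1.13 over 9 genes in Hoxb, -0.72 over 6 in Hoxd, -0.31 over 10 in Hoxa and -0.06 over 8 in Hoxc. The 9 in Hoxb include Hoxb9 and Hoxb13, with 122 and 88 reads over all 8 libraries. The groups did not overlap for 18 Hox genes, all lower in shSCR, or 54.5%, against 54.6% of all genes.

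Hoxb8, a gene of the thoracic level that also holds blood progenitors in a dividing state, had 2.46 and 2.79 CPM in shSCR, against 6.34 and 6.23 CPM in sgSCR libraries (log2 fold change -1.26 ± 0.34, adjusted p = 0.0804). Hoxd4 had 2.33 and 4.18 CPM in shSCR, against 8.25 and 8.67 CPM in sgSCR libraries (-1.37 ± 0.38, adjusted p = 0.0828). Hoxc8 had 12.2 and 11.9 CPM in shSCR, against 18.8 and 17.4 CPM in sgSCR libraries (-0.59 ± 0.17, adjusted p = 0.0918). For all 3 the shSCR libraries lay below the sgSCR libraries. With only protein-coding transcripts summed, the log2 fold change was -0.77 for Hoxd4 and -1.15 for Hoxc8. Without shSCR 2, when shSCR 1 alone stood for its group, Hoxd8 (-1.27, adjusted p = 0.013), Hoxb2 (-1.44, adjusted p = 0.0156) and Hoxd4 (-1.85, adjusted p = 0.0378) passed. Without shSCR 1 they were at -0.20 (adjusted p = 0.685), -0.34 (adjusted p = 0.544) and -1.01 (adjusted p = 0.307).

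Hoxb8 was also low in the libraries labelled shMif, at 2.01 and 2.99 CPM, beside 6.25 and 5.19 CPM in sgMif libraries. In all, 4 of the 33 Hox genes, Hoxb3, Hoxb8, Hoxb9 and Hoxc8, had every one of the 4 hairpin libraries below every one of the 4 guide libraries, or 12.1%, against 12.2% of all genes that separated the systems in either direction. Hoxb9 had 0.0515 and 0.199 CPM in shMif and 0.182 and 0.161 CPM in shSCR libraries, beside 0.274 and 0.451 CPM in sgMif and 1.26 and 1.15 CPM in sgSCR libraries. Its separation rests on few reads, 1 and 7 in shMif, 7 and 8 in shSCR and 6 and 20 in sgMif libraries. The value in shMif 1 lies below the 0.158 CPM that 3 reads equalled in that library. This look at the systems was chosen after the values were seen and was not tested. The sequences before the starts of Hoxb8 and Hoxd4 are shown because these genes had the smallest p-values between the control groups. Hoxb8 lies at chr11:96281655-96281904 with 12 CG pairs, and Hoxd4 at chr2:74721728-74721977 with 3, both on the plus strand of GRCm38.p6 with CG pairs in capitals, from RefSeq.
Hoxb8: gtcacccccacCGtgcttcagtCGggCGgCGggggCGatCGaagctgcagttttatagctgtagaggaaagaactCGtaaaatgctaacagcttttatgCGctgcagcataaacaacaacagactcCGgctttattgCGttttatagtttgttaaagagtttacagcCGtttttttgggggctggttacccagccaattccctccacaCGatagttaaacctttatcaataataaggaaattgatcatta
Hoxd4: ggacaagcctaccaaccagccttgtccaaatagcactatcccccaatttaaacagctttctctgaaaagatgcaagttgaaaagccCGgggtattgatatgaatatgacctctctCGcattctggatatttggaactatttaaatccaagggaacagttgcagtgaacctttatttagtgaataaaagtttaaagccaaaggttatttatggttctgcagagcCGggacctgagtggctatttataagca

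**Figure D4:**
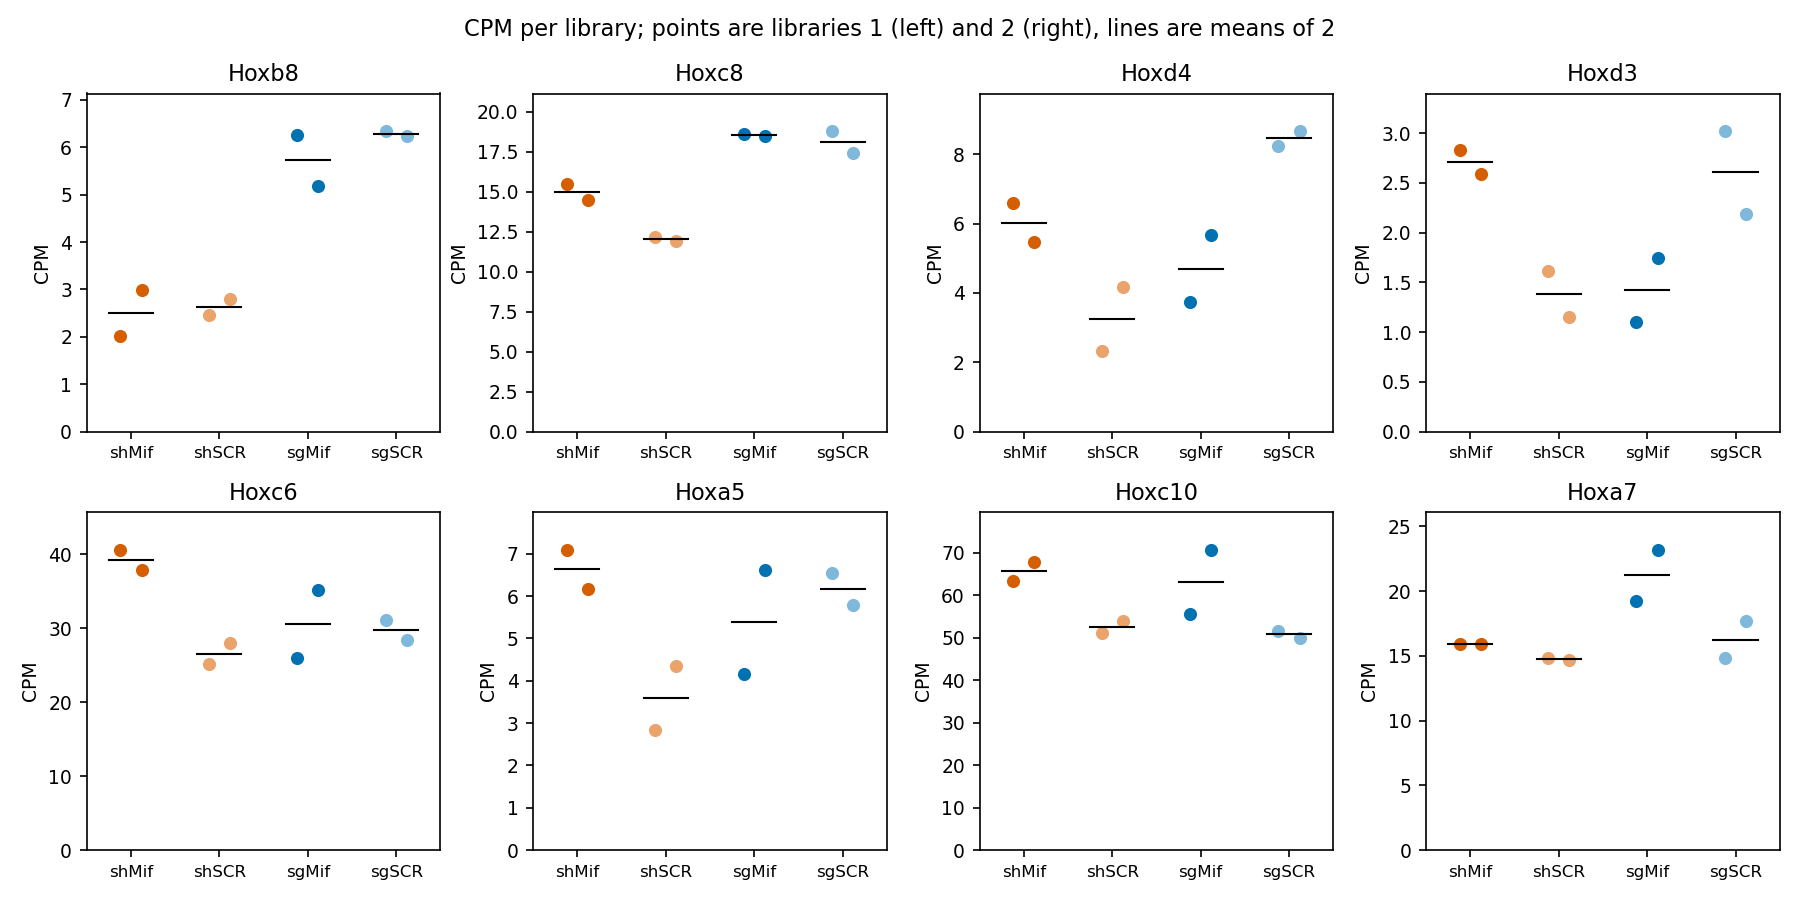
CPM in each library of 8 Hox genes, with groups along the horizontal axis, points for single libraries and lines for the means of 2. They are the genes named in the text for the smallest p-values within each comparison, except Hoxd8, which is in the plot of the 2 scales. Hoxb8 is at 2.01 to 2.99 CPM in the 4 hairpin libraries and at 5.19 to 6.34 CPM in the 4 guide libraries, and Hoxd4 is highest in the 2 sgSCR libraries.

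Markers of other cell types were compared in the same libraries. Those listed for host skin fibroblasts summed to 766 and 937 CPM in shSCR, against 1640 and 1340 CPM in sgSCR libraries. All 11 had reads, and 4 of the 11 fell in edgeR, where 4.02% of all genes passed. DESeq2 called 8, where it called 12.9% of all genes, and 8 had an unadjusted p under 0.05 (72.7%, against 22.9%). The list summed to 982 and 977 CPM in the libraries labelled shMif, and to 553 and 378 CPM in sgMif libraries. Whether these reads came from host cells or from the sarcoma cells, which are of mesenchymal source as well, was not tested. Macrophage markers summed to 259 and 276 CPM in shSCR, against 343 and 188 CPM in sgSCR libraries, and to 148 and 114 CPM in sgMif libraries. Between sgMif and sgSCR, 1 of the 12 fell in edgeR, Mrc1 (-4.18, adjusted p = 0.0333), where 0.987% of all genes passed. DESeq2 called 4 of the 12, where it called 6.58% of all genes. At an unadjusted p under 0.05 there were 6 of the 12, against 16.6% of all genes. The median log2 fold change over the 12 macrophage markers was -1.17, against -0.01 over all genes. Mesenchymal markers summed to 31600 and 37700 CPM in shSCR, against 37900 and 40100 CPM in sgSCR libraries, and to 41200 and 55300 CPM in the libraries labelled shMif. Of the 12 mesenchymal markers 2 rose in shSCR relative to sgSCR, Fn1 (0.77, adjusted p = 0.046) and S100a4 (1.12, adjusted p = 0.013), and 0 fell in edgeR, where 4.02% of all genes passed. The median log2 fold change over the 12 markers was -0.32, against -0.04 over all genes, so the 2 that rose do not stand for the list. DESeq2 called 5, where it called 12.9% of all genes, and 5 had an unadjusted p under 0.05 (41.7%, against 22.9%). The part of all these markers in the Hox values was not tested. In bulk RNA fewer cells of a type and less RNA per cell cannot be told apart.

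The genes around the Hox system were taken as fixed lists, written with earlier results of these data known. Of 11 cofactor genes, all tested, 0 passed in edgeR in each of the 4 comparisons. At an unadjusted p under 0.05 there were 7 for shSCR against sgSCR, 4 for sgMif against sgSCR, and 0 for shMif against shSCR and for the difference of the effects. These were 63.6% and 36.4% of the list in the first 2, against 22.9% and 16.6% of all genes, and 0% where all genes gave 9.26% and 15.8%. DESeq2 called 2, Pknox2 among them, for shSCR against sgSCR, Meis1 for sgMif against sgSCR, and 0 in the other 2 comparisons. Of all genes it called 12.9% and 6.58% in the first 2, 1.38% for shMif against shSCR and 4.54% for the difference of the effects. Meis1, a partner of Hoxa9 and Hoxa10, had 24.5 and 36.7 CPM in sgMif, against 61.6 and 50.1 CPM in sgSCR libraries (-0.87 ± 0.27, adjusted p = 0.163).

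Of 26 Polycomb genes, which keep Hox genes off, Phf19 rose in sgMif relative to sgSCR, and in edgeR 0 passed in the other 3 comparisons. At an unadjusted p under 0.05 there were 8 for shSCR against sgSCR, 6 for the difference of the effects, 5 for sgMif against sgSCR and 0 for shMif against shSCR, and DESeq2 called 4, 3, 3 and 0 in that order. The unadjusted shares were 30.8%, 23.1% and 19.2% in the first 3, against 22.9%, 15.8% and 16.6% of all genes. Of all genes DESeq2 called 12.9%, 4.54%, 6.58% and 1.38%, in the same order of comparisons. Phf19, a subunit that brings the complex to its sites, had 38.4 and 41.2 CPM in sgMif, against 21.5 and 20.4 CPM in sgSCR libraries (0.93, adjusted p = 0.0394). The call ended under 11 of the alternatives, with an adjusted p of 0.0508 to 0.588, and with counts scaled by length the log2 fold change was 0.40. Of 19 trithorax and demethylase genes, which keep Hox genes on, Kdm6b fell in shSCR relative to sgSCR, and in edgeR 0 passed in the other 3 comparisons. At an unadjusted p under 0.05 there were 6 for shSCR against sgSCR, 3 for shMif against shSCR, 1 for the difference of the effects and 0 for sgMif against sgSCR, and DESeq2 called 4, 0, 0 and 0 in that order. The unadjusted shares were 31.6%, 15.8% and 5.26% in the first 3, against 22.9%, 9.26% and 15.8% of all genes. For DESeq2 the shares of all genes were 12.9%, 1.38%, 4.54% and 6.58%, in the same order of comparisons. Kdm6b, which removes the Polycomb mark, had 125 and 191 CPM in shSCR, against 299 and 337 CPM in sgSCR libraries (-1.01, adjusted p = 0.0417). That call also ended under 11 alternatives, with an adjusted p of 0.0519 to 0.211.

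Genes of retinoic acid handling and the Cdx genes numbered 20, of which 13 were tested. In edgeR 1 fell in sgMif relative to sgSCR, 2 fell in shSCR relative to sgSCR, and 0 passed for shMif against shSCR or for the difference of the effects. An unadjusted p under 0.05 was found for 4 between sgMif and sgSCR (30.8%, against 16.6% of all genes), 4 between shSCR and sgSCR (30.8%, against 22.9%), 3 between shMif and shSCR (23.1%, against 9.26%) and 6 for the difference of the effects (46.2%, against 15.8%). DESeq2 called 1, 4, 1 and 2 in that order, where it called 6.58%, 12.9%, 1.38% and 4.54% of all genes. Cyp26b1, which breaks down retinoic acid, had 11 and 7.55 CPM in sgMif, against 60.3 and 85.1 CPM in sgSCR libraries (-2.98, adjusted p = 0.0148). It had 11.8 and 7.48 CPM in the libraries labelled shMif and 14.1 and 11.7 CPM in shSCR libraries, so that shSCR also lay below sgSCR (-2.50, adjusted p = 0.00788). The high level was in both sgSCR libraries and in none of the other 6. The sgMif call ended without any 1 of the 4 guide libraries (adjusted p = 0.0668 to 0.14), and the shSCR call ended without sgSCR 2 (adjusted p = 0.0755). Stra6, a receptor that takes up vitamin A, had 5.63 and 6.54 CPM in shSCR, against 14 and 18.7 CPM in sgSCR libraries (-1.42, adjusted p = 0.0382), and its call ended under 9 alternatives. In the same libraries Dcn fell by 2.18 on the log2 scale in sgMif relative to sgSCR (adjusted p = 0.0149) and by 1.12 in shSCR relative to sgSCR (adjusted p = 0.037). Dcn is in the list of host skin fibroblast markers, but whether its reads came from host cells was not tested. Macrophage markers were lower in sgMif libraries as well, as given above. The part of these markers in the Cyp26b1 and Phf19 differences was not tested.

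**Figure D5:**
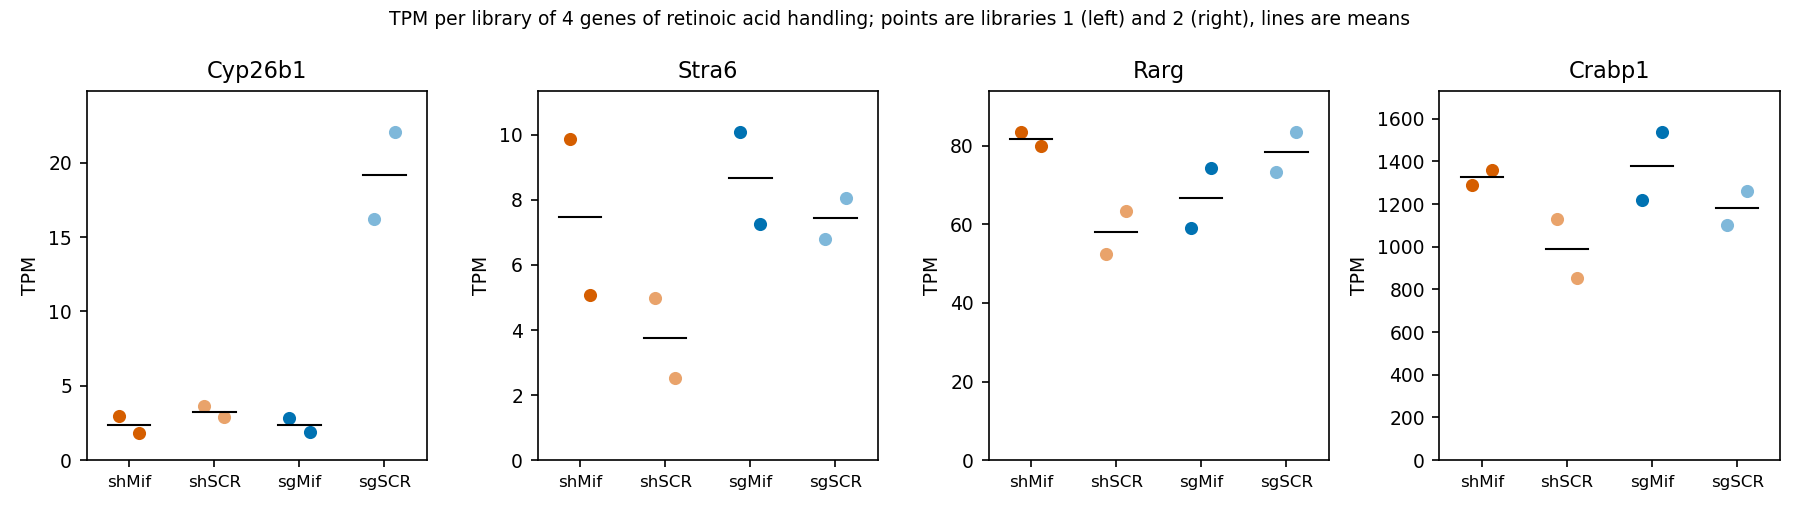
TPM in each library of Cyp26b1, Stra6, the receptor Rarg and the binding protein Crabp1, with groups along the horizontal axis, points for single libraries and lines for the means of 2. Cyp26b1 is at 16.2 and 22.1 TPM in the sgSCR libraries and at 1.82 to 3.65 TPM in the other 6, while Crabp1 is between 854 and 1540 TPM in all 8.

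The following levels were chosen after the values were seen. Crabp1, which binds retinoic acid in the cytosol, had 854 to 1540 TPM, and the receptor Rarg 52.5 to 83.6 TPM. Aldh1a1 and Aldh1a2, which make retinoic acid, had at most 0.421 and 0.508 TPM, and Cdx1, Cdx2 and Cdx4 at most 0.193, 0.274 and 0.0189 TPM. Among 20 genes of limb and positional identity, of which 17 were tested, 0 passed in edgeR in each of the 4 comparisons. At an unadjusted p under 0.05 there were 2 for sgMif against sgSCR, 1 for shSCR against sgSCR and 0 in the other 2, or 11.8% and 5.88% in the first 2, against 16.6% and 22.9% of all genes. DESeq2 called 1 in each of the first 2, where it called 6.58% and 12.9% of all genes, and 0 in the other 2. Pitx1, the hindlimb selector gene, had 4.76 to 24.9 TPM, while Tbx4 and Tbx5, of the hindlimb and forelimb buds, had at most 0.0936 and 0.145 TPM. Tbx15 and Prrx1, which are made widely in limb and skin mesenchyme, had 45.3 to 74.2 and 94.1 to 166 TPM. Of 10 other homeobox genes related to the clusters, Meox2 alone was tested, with 2.83 to 6.74 TPM, and did not pass in edgeR in any of the 4 comparisons (log2 fold change -0.97, adjusted p = 0.0675 for shSCR against sgSCR, which DESeq2 called). Of the 29 listed non-coding RNAs of the clusters, 0 had transcripts in the deposited tables, so they were not analysed here.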

How the data were processed

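The libraries were made from total RNA extracted with TRIzol, per the labels' protocols. Reads were handled with Trimmomatic and Salmon against build mm10, per the submitters' processing notes; library kit, strandedness, tool versions and options were not given in the sources used here. Each deposited table gives an estimated count of reads and a TPM value for 116546 transcripts, per the file headers. TPM as deposited are scaled by each transcript's effective length. Transcripts were joined to GENCODE M21 (115977 matched), and estimated counts and TPM were summed per gene, counts being rounded to whole numbers. Unmatched transcripts held 0.101 to 0.205% of reads.

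Counts were tested with edgeR 4.0.16 in R 4.3.3 (TMM scaling, filterByExpr by group with a minimum count of 10, quasi-likelihood test on 4 group means over all 8 libraries, 4 residual degrees of freedom), with Benjamini-Hochberg adjustment over 16309 genes and a threshold of 0.05. The fit was tested on simulated data. CPM use TMM library sizes, and the spread was taken over log2 of CPM plus 0.5. Alternatives included DESeq2 1.42.0. The members were taken by symbol alone. This gene family and the gene lists were chosen with earlier results of these data known. Genes given in full were the 3 highest per cluster and the 3 with the smallest p per comparison, since none passed, with up to 3 per list. Values of some single genes are not reported here.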

Additional observations from a re-analysis of the deposited data

How the results depend on the processing

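Each count of Hox genes past the threshold was 0 in edgeR, and it was recomputed under 10 kinds of alternative. For shSCR against sgSCR it became 3 with DESeq2 (Hoxb3, Hoxb8 and Hoxd4), 3 with no filter on low counts (Hoxd8, Hoxb3 and Hoxd4), 3 with only the 5 libraries of high olfactory receptor reads (Hoxd8, Hoxb2 and Hoxd4), and 0 to 3 when each library was left out in turn, the 3 arising without shSCR 2. For shMif against shSCR it became 1 with no filter (Hoxd8), 2 with those 5 libraries, and 0 to 2 over libraries left out, the 2 arising without shSCR 2. For the difference of the effects it became 1 with those 5 libraries (Hoxd4). For sgMif against sgSCR it stayed 0. A fit on a comparison's own groups alone gave no value for the difference, which needs all 4. The counts of genes at 0.5 TPM, at 2 TPM and on coding transcripts were chosen after seeing the data. Among the 17 pairs of a gene and a comparison followed through the alternatives, 0 log2 fold changes turned sign. These pairs were picked for small p-values in the same data, so their steady signs say little about other genes. The fit on those 5 libraries has 1 library in 3 of the groups and takes its spread from sgSCR alone. Where leaving out libraries left a group with 1, its spread was taken to equal that of the remaining groups. With a replicate block the count was 0 in all 4 comparisons. The numbers are only names in the labels: same-numbered libraries deviated together by correlations of 0.263 (shMif and shSCR), 0.182 (sgMif and sgSCR) and 0.154 (shSCR and sgSCR), over 2 pairs each. Over all genes the calls moved more: 3 for shMif against shSCR, 0 to 1162 among the alternatives; 161 for sgMif against sgSCR, 0 to 1494; 15 for the difference, 0 to 1306; and 655 for shSCR against sgSCR, 60 to 2747. With 2 libraries a group and 4 residual degrees of freedom, changes of the size measured here could be missed.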
